A study of Mus musculus with 6 samples.

Results

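The 28 genes described here encode enzymes of cholesterol and fatty acid synthesis and the proteins that switch these enzymes on and off. They were chosen by symbol, as a list, and all 28 were found among the 24054 genes of a table of transcript levels in 6 mouse libraries. All 28 passed the minimum for testing, a level of at least 1 TPM in at least 3 libraries, as did 12223 genes in all. TPM is the level of a transcript scaled to its length and to a fixed library sum, so that levels of different genes can be set side by side.

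Each library came from the c-Kit+ spleen cells of 1 mouse. The receptor c-Kit, or CD117, marks stem and early progenitor cells of the blood, and the cells had been pulled out with CD117 beads. The 3 AML (acute myeloid leukaemia) mice, described as moribund, carried Flt3 ITD/ITD and Dnmt3a fl/- with MxCre. The 3 MPN (myeloproliferative neoplasm) mice, the controls of the protocol, carried Flt3 ITD/ITD and Dnmt3a fl/fl, and their titles name no Cre. The internal tandem duplication (ITD) makes the Flt3 receptor signal without its ligand, and it was shared by both groups. Dnmt3a is a DNA methyltransferase, and MxCre is a recombinase driven by the interferon-inducible Mx promoter, which acts in blood cells and also elsewhere. The titles do not say whether the floxed allele had been deleted, and no ages are given. Dnmt3a genotype, Cre and disease state cannot be told apart in this design.

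Several features of the libraries stand beside every result below. Dnmt3a had 11.5 to 13.5 TPM in AML mice and 29.3 to 33.9 TPM in MPN mice, and Kit had 99.2 to 129.7 TPM in AML mice and 144.7 to 152.0 TPM in MPN mice. AML replicates 1 and 2 had 186 and 194 TPM of the female transcript Xist and the other 4 mice at most 0.06 TPM, so females occurred in the AML group only. The library of MPN replicate 1 came from a run of its own, per the file headers, and the other 5 shared a run. Relative sequencing depth ran from 0.739 to 1.29 in AML mice and from 0.936 to 1.04 in MPN mice. Genes at 1 TPM or more numbered 11780 to 12034 per library. Of 15 macrophage markers tested 13 were lower in AML mice by the limma test described below, with summed levels of 104 to 215 TPM in AML mice and 483 to 652 TPM in MPN mice, and C1qa was at 0 in AML replicates 2 and 3. Of 12 mature neutrophil markers 9 were lower (7465 to 21726 TPM in AML mice, 31854 to 50604 TPM in MPN mice), as were 7 of 13 dendritic cell markers (402 to 1826 TPM in AML mice, 2102 to 2634 TPM in MPN mice) and 6 of 7 B cell markers (33.5 to 48.0 TPM in AML mice, 101.5 to 135 TPM in MPN mice). Of 12 T and NK cell markers 9 were lower and 2 higher (301 to 502 TPM in AML mice, 304 to 397 TPM in MPN mice), and of 15 erythroid markers 1 was lower (191 to 2209 TPM in AML mice, 1018 to 4114 TPM in MPN mice). Of 6 c-Kit+ progenitor markers 4 were higher (2249 to 5473 TPM in AML mice, 1573 to 2428 TPM in MPN mice), as were 3 of 6 mast cell and basophil markers (147 to 275 TPM in AML mice, 64.6 to 125.1 TPM in MPN mice). Gata2, which was higher, is in both lists. Of 18 proliferation genes 3 were higher (2266 to 2979 TPM in AML mice, 1801 to 2343 TPM in MPN mice). Of all tested genes 20.1% were higher and 10% lower, and the proliferation and erythroid counts are near these shares. Even so, all 15 erythroid markers had a negative log2 fold change, with a median of -1.88, against 0.13 over all tested genes. The progenitor, T and NK, erythroid and proliferation sums overlapped between groups. Mpo and Cd79b, the most abundant genes of the progenitor and B cell sums, overlapped and were not called. Nkg7, the most abundant gene of the T and NK sum, was higher. The part of these cell types in the levels below was not tested, and in such bulk samples fewer cells of a type and less RNA per cell cannot be told apart.

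Cholesterol and fatty acids are both built from cytosolic acetyl-CoA. The mevalonate pathway joins acetyl-CoA units into isoprenoids and squalene, and a second set of enzymes folds squalene into a sterol and trims it to cholesterol, while fatty acid synthase and its partner enzymes lengthen and desaturate acyl chains. Transcription of both routes is driven by the sterol regulatory element-binding proteins (SREBPs), which the escort protein SCAP carries from the endoplasmic reticulum to the Golgi for cleavage when sterols are low and which the INSIG proteins hold back when sterols are high. The SREBP made from Srebf1 acts mainly on fatty acid genes and the one made from Srebf2 mainly on cholesterol genes, and growing blood cells, leukaemic ones included, draw on both routes for membranes.

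Across the 28 genes, 5 were higher and 1 lower in AML mice than in MPN mice, and 3 of the 5 belonged to fatty acid synthesis. The test was limma on log2(TPM + 1) over all tested genes, two-sided, with Benjamini-Hochberg adjusted p under 0.05 as the threshold. Elovl6, Scd2 and Acly of fatty acid synthesis rose, as did Acat2 at the head of the mevalonate pathway and the escort gene Scap, while the sterol demethylase Cyp51 fell. The 6 calls are 21.4% of the list, against 30.1% of all tested genes (20.1% higher and 10% lower). The AML and MPN values did not overlap for 11 of the 28 genes (39.3%), 7 of them higher and 4 lower in AML mice, against 50.9% of all tested genes (34.8% higher and 16.1% lower). The median log2 fold change was -0.01 over the list and 0.13 over all tested genes, and 13 of the 28 genes had a positive value (46.4%, against 61.4% of all tested genes). A change of at least 2-fold with a call was reached by 2 genes of the list, Elovl6 and Scd2, against 13.6% of all tested genes. At an unadjusted p under 0.05, 11 of the 28 passed (39.3%), against 43.6% of all tested genes.

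The counts moved with the processing and with single mice. With each library scaled to the same median, 3 genes were higher and 3 lower, and with quantile normalization 4 were higher and 3 lower, with Hmgcs1 and Fdft1 joining Cyp51. With any 1 mouse left out, 2 to 4 genes were higher and 1 to 3 lower, and a term for sex, which sets the male AML replicate 3 against the male MPN mice, left 1 higher (Elovl6) and 0 lower. That fit called 9.88% of all tested genes, and it assumes that the single male AML mouse varies like the others.

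**Figure D1:**
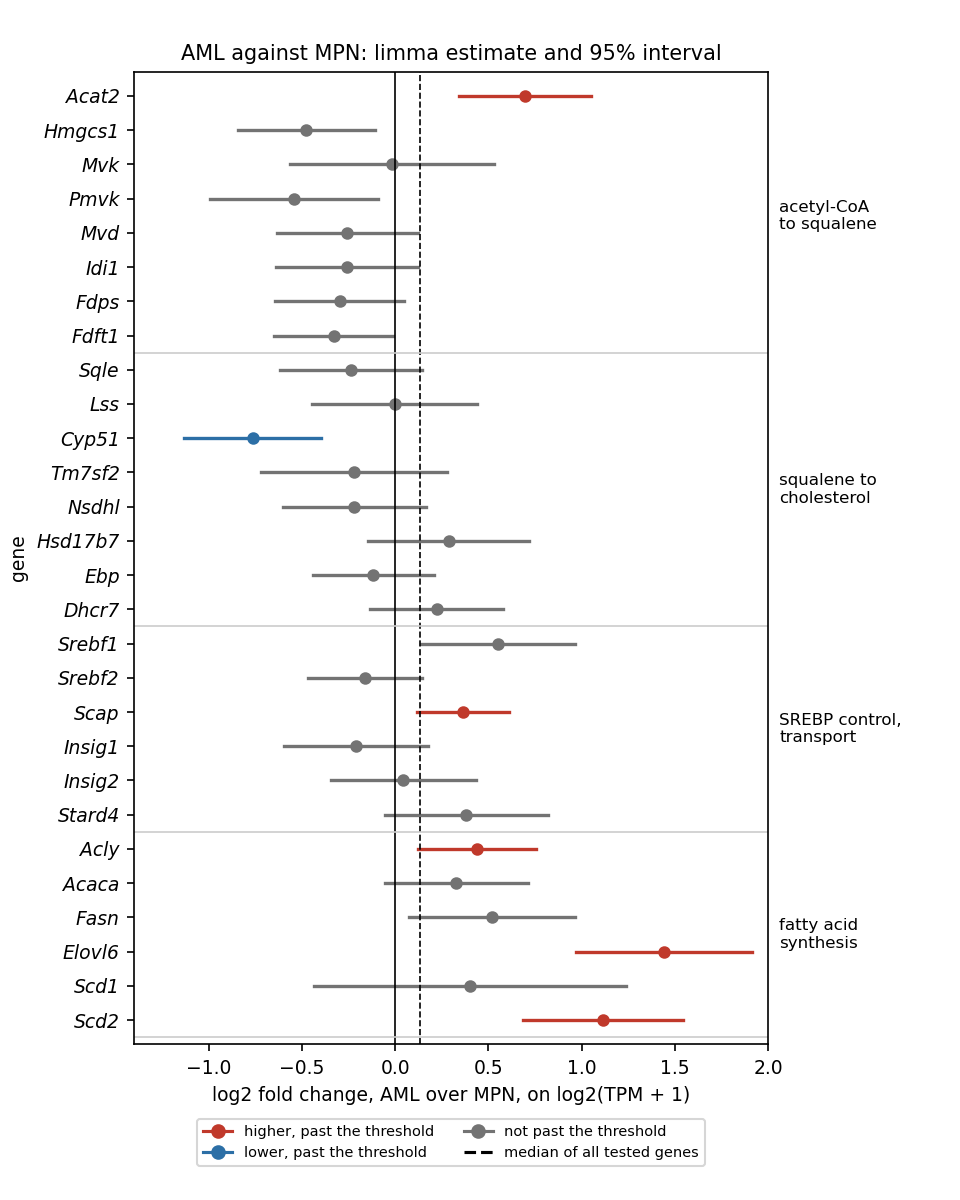
Log2 fold change of each of the 28 genes, AML over MPN, on log2(TPM + 1) (horizontal axis), with the limma estimate as a point and its 95% interval as a line. Genes are grouped by role down the page; the dashed line is the median of all tested genes, 0.13. The fatty acid genes all lie right of 0, led by Elovl6 at 1.44, while 13 of the 16 cholesterol enzymes lie left of 0, with Cyp51 lowest at -0.77.

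Promoter sequences of 4 genes are shown because their values frame the comparison: Elovl6 had the largest rise, Acly is the called gene at the branch point of both routes, Cyp51 was the called gene with the fall, and Hmgcs1 was the one gene of the list whose window held the sterol regulatory element letters searched for. Each window is RefSeq's, on build GRCm38.p6, from 250 bases before to 50 bases after an annotated start, written 5′ to 3′ on the gene's own strand. Capitals mark matches to TCACNCCAC (a sterol regulatory element form), CACGTG (an E-box), CCAAT (the NF-Y box) or GGGCGG (the Sp1 box) on either strand.
Elovl6 (chr3:129532136-129532435, plus strand): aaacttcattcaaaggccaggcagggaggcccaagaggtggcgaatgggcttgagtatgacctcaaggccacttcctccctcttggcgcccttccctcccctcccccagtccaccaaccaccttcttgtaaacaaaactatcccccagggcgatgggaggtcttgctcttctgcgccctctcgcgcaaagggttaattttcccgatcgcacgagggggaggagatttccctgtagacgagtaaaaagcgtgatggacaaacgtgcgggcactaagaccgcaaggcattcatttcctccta
Acly (chr11:100527951-100528250, minus strand): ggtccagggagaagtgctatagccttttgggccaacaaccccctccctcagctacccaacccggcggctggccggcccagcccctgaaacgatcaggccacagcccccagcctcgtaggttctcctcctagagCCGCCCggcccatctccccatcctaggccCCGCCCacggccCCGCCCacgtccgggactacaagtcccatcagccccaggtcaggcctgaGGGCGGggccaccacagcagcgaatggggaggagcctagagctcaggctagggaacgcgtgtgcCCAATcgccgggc
Cyp51 (chr5:4104648-4104947, minus strand): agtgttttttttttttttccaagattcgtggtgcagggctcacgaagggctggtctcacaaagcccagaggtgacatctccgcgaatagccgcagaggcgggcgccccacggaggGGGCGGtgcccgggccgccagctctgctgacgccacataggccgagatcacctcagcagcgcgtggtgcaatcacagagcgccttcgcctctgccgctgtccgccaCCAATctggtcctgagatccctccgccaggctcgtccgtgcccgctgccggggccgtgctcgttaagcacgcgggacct
Hmgcs1 (chr13:119690101-119690400, plus strand): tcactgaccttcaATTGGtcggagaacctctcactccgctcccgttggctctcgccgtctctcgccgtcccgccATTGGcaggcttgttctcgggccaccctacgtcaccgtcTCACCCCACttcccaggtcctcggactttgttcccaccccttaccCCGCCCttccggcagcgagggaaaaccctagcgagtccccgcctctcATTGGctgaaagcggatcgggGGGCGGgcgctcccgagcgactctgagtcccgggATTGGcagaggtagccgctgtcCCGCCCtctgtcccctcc
The Elovl6 window held none of the 4 motifs. Other forms of the sterol regulatory element were not searched for in any window. The Hmgcs1 window held TCACCCCAC, which begins 137 bases before the start, with a CCAAT box or its reverse on both sides of it and GGGCGG or its reverse only downstream of it. The Cyp51 window held 1 GGGCGG and 1 CCAAT, and the Acly window held GGGCGG or its reverse before the start and a CCAAT after it.

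RefSeq windows were matched for 22 of the 28 genes, and Sqle, Scd1, Scd2, Fdft1, Fdps and Stard4 had none. CCAAT was found in a window of 18 of the 22 genes (81.8%), against 41.1% of the 27025 genes with a window and 43.3% of the 9224 tested genes with one. By role, it was found in 5 of 6 genes from acetyl-CoA to squalene, 7 of 7 from squalene to cholesterol, 4 of 5 control genes and 2 of 4 fatty acid genes, Acly and Fasn. GGGCGG was also found in 18 genes, against 38.2% of all genes and 67.96% of the tested genes, and in 1 of the 4 fatty acid genes. CACGTG was found in Dhcr7, Hsd17b7, Insig1 and Scap (18.2%), against 8.09% of all genes and 11.9% of the tested genes, and TCACNCCAC in Hmgcs1 (4.55%), against 1.44% and 1.34%. Genes with several annotated starts have several windows and so more chances of a match, and a match is a run of letters, not a bound site. A forward and a reverse CCAAT overlap in the Fasn window.

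Fatty acid synthesis was the role with the most calls, 3 of 6 genes higher and 0 lower, with a median log2 fold change of 0.48. Of all tested genes 20.1% were higher and 10% lower, with a median of 0.13. Of the 3 calls, that of Acly held in only 4 of 16 alternatives. Acly makes cytosolic acetyl-CoA from citrate, Acaca carboxylates it to malonyl-CoA, Fasn builds palmitate, Elovl6 lengthens palmitate, and Scd1 and Scd2 put in the double bond of oleate-type chains.

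Elovl6 (chr3:129532355-129638495, plus strand, in GENCODE M21 on GRCm38) had 31.3, 24.03 and 22.7 TPM in the AML mice, against 10.9, 9.09 and 6.95 TPM in the MPN mice. The lowest AML mouse lay above the highest MPN mouse. It averaged 26.0 ± 4.61 TPM in AML and 8.97 ± 1.96 TPM in MPN mice (SD, n = 3 each), a ratio of 2.90 and a log2 fold change of 1.44 ± 0.20 (SE), with a limma adjusted p of 0.00265. A rise at least as large was seen in 3.80% of all tested genes, and it was called in all 16 alternatives run, with adjusted p of 0.000704 to 0.0402.

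Scd2 (chr19:44293674-44306864, plus strand), the desaturase with the higher level of the pair in these cells, had 204, 144 and 140.6 TPM in the AML mice, against 83.8, 77.6 and 61.3 TPM in the MPN mice. It averaged 163 ± 35.7 TPM in AML and 74.2 ± 11.6 TPM in MPN mice, a log2 fold change of 1.12 ± 0.18 (limma adjusted p = 0.00484), and the groups did not overlap. With the term for sex its log2 fold change was 0.93 and its adjusted p 0.0664, and it was called in the other 15 alternatives. Scd1, which lies on the same chromosome and is the form best known from liver, was scarce, with 7.47, 2.20 and 5.07 TPM in the AML mice and 4.23, 2.64 and 2.75 TPM in the MPN mice. Its groups overlapped, and its log2 fold change of 0.40 had a 95% interval of -0.44 to 1.24 (limma adjusted p = 0.418). Of the 75-base windows of their transcripts, 1.80% for Scd2 and 3.198% for Scd1 also occur in another Scd gene or a related locus. Scd4, a further desaturase looked up after the values of Scd2 were seen, had 8.38, 15.5 and 35.3 TPM in the AML mice and 4.22 to 5.86 TPM in the MPN mice (log2 fold change 1.52 ± 0.45, limma adjusted p = 0.0389). Its order among the AML mice was the reverse of that of Scd2.

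Acly (chr11:100476353-100528000, minus strand) had 185, 140.25 and 147 TPM in the AML mice, against 126, 115 and 106 TPM in the MPN mice, with no overlap. Its log2 fold change was 0.44 ± 0.14 with a limma adjusted p of 0.0465, close to the threshold, and a rise as large was seen in 25.0% of all tested genes. With any 1 of the 6 mice left out the adjusted p was 0.0513 to 0.128, so the call rests on having all of them. Fasn had 87.1, 65.8 and 58.9 TPM in the AML mice and 56.6, 50.8 and 39.2 TPM in the MPN mice. The groups did not overlap, by a gap of 58.9 against 56.6 TPM, and the log2 fold change of 0.52 ± 0.19 did not pass (limma adjusted p = 0.0781). Acaca had 28.4, 24.9 and 22.3 TPM in the AML mice and 23.0, 20.2 and 16.6 TPM in the MPN mice, with overlap (log2 fold change 0.33, limma adjusted p = 0.167). Of the Acaca windows, 44.2% also occur in the predicted gene Gm5182, so part of its level is uncertain.

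The 6 fatty acid genes had the same highest mouse within each group. AML replicate 1 had the highest AML value for all 6 genes, and MPN replicate 1 had the highest MPN value for all 6. Their summed level was 543, 401 and 397 TPM in AML replicates 1 to 3, against 304, 275 and 232 TPM in MPN replicates 1 to 3, without overlap. Within each group the mice also had the same order in sequencing depth and in the erythroid marker sum (2209, 979 and 191 TPM in AML mice, 4114, 2248 and 1018 TPM in MPN mice). The mast cell and basophil marker sum had this order too (275, 259 and 147 TPM in AML mice, 125.1, 70.0 and 64.6 TPM in MPN mice). Between the groups the erythroid sums overlapped and averaged 1126 TPM in AML and 2460 TPM in MPN mice. The mast cell and basophil sums did not overlap and were higher in AML mice, as were the fatty acid sums. The part of depth or of these cell types in the fatty acid genes was not tested.

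**Figure D2:**
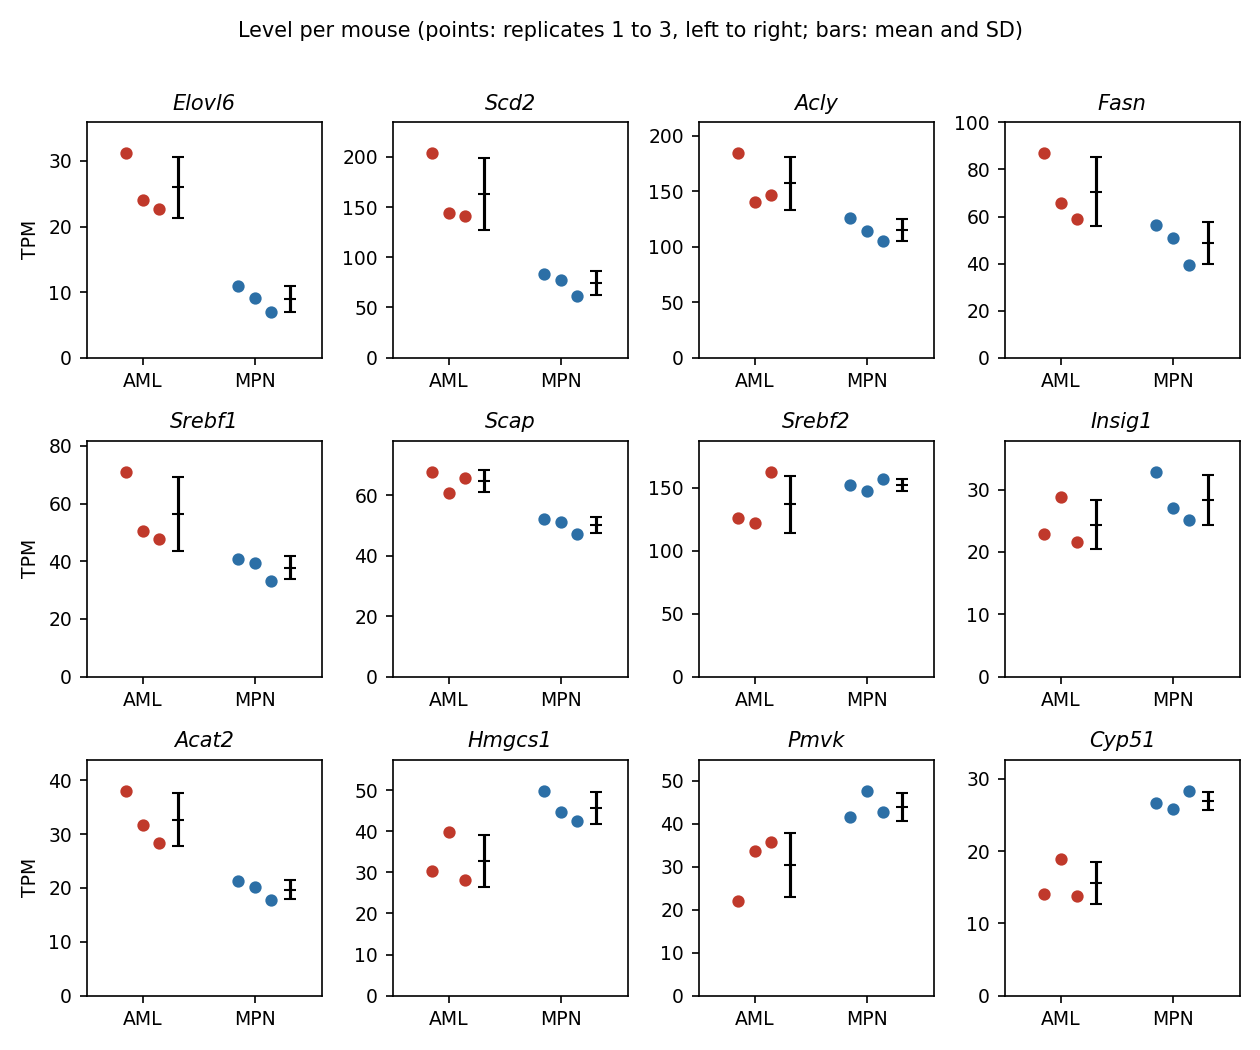
Level in TPM (vertical axes, each from 0) of 12 of the genes in every mouse, AML in red left of MPN in blue, with points for replicates 1 to 3 and bars for the mean and SD of 3 mice. Elovl6, Scd2, Acly, Fasn, Srebf1, Scap and Acat2 have AML points above all MPN points, Hmgcs1, Pmvk and Cyp51 have them below, and Srebf2 and Insig1 overlap.

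Of the 16 enzymes of cholesterol synthesis 1 rose, 1 fell and 14 did not pass, while 20.1% of all tested genes were higher and 10% lower. Their median log2 fold change was -0.23 (0.13 over all tested genes), with 3 positive and 13 negative values. The first of these enzymes, Acat2 (chr17:12942890-12960747, minus strand), joins 2 acetyl-CoA molecules in the cytosol, and it had 38.0, 31.6 and 28.3 TPM in the AML mice, against 21.2, 20.1 and 17.7 TPM in the MPN mice. Every AML mouse lay above every MPN mouse, and the log2 fold change was 0.70 ± 0.15 (limma adjusted p = 0.0140). Without MPN replicate 2 the adjusted p was 0.0526, and with the term for sex 0.198. The near-identical Acat3 shares 35.6% of the 75-base windows of Acat2, and it had 0.38 to 0.56 TPM in AML mice and 0.31 to 0.69 TPM in MPN mice. In the RPKM table Acat3 was above Acat2, with 23.6, 19.5 and 17.8 RPKM in the AML mice and 13.8, 14.9 and 13.6 RPKM in the MPN mice, while Acat2 had 14.7, 12.4 and 10.6 RPKM in the AML mice and 7.88, 7.49 and 7.32 RPKM in the MPN mice. The tables thus differ on which of the pair holds the reads, so the level of Acat2 is uncertain.

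The enzymes between Acat2 and squalene had lower averages in AML mice, apart from Mvk. Hmgcs1, which condenses acetoacetyl-CoA with a further acetyl-CoA to HMG-CoA, had 30.4, 39.9 and 28.02 TPM in the AML mice and 49.8, 44.6 and 42.5 TPM in the MPN mice. The groups did not overlap, and the log2 fold change of -0.48 ± 0.16 missed the threshold (limma adjusted p = 0.0564; 0.0250 without AML replicate 2). Hmgcs1 passed in 4 of the 16 alternatives. The predicted gene Gm48342 covers 12.1% of its exonic bases on the other strand. Pmvk, the phosphomevalonate kinase, had 22.0, 33.7 and 35.75 TPM in the AML mice and 41.5, 47.7 and 42.8 TPM in the MPN mice. It too did not overlap and did not pass (log2 fold change -0.54 ± 0.19, limma adjusted p = 0.0699; 0.0442 without AML replicate 3). Pmvk passed in 2 of the 16 alternatives. Fdft1, the squalene synthase, had 12.8, 15.01 and 12.7 TPM in the AML mice and 17.6, 17.0 and 16.9 TPM in the MPN mice, again without overlap (log2 fold change -0.33 ± 0.14, limma adjusted p = 0.106). The overlapping Ctsb gene covers 18.3% of the Fdft1 exonic bases on the other strand, and the sources used here do not say whether counting used the strand.

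The remaining enzymes up to squalene overlapped between groups. Fdps, which makes farnesyl diphosphate and was the most abundant enzyme of the cholesterol route, averaged 99.0 ± 19.7 TPM in AML and 120.5 ± 4.62 TPM in MPN mice (log2 fold change -0.30, limma adjusted p = 0.162; 0.0334 without AML replicate 2). Leaving out that mouse was the only alternative of 16 in which Fdps passed. Fdps shares 58.5% of its windows with other loci, mainly the predicted gene Gm43738, so its level is uncertain. Idi1, the isopentenyl diphosphate isomerase, had 31.3 to 44.5 TPM in AML and 41.3 to 51.9 TPM in MPN mice. Of the Idi1 windows, 18.9% also occur in other loci such as Gm13502, so part of its level is uncertain. Mvd, the mevalonate diphosphate decarboxylase, had 13.04 to 18.0 TPM in AML and 16.8 to 19.7 TPM in MPN mice. Mvk, the mevalonate kinase, had 7.59 to 14.4 TPM in AML and 10.4 to 12.3 TPM in MPN mice, the widest spread of the route among the AML mice relative to its level.

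Cyp51 (chr5:4081145-4104746, minus strand), the demethylase that takes a methyl group off lanosterol, was the one gene of the list that fell. It had 14.02, 18.9 and 13.8 TPM in the AML mice, against 26.7, 25.9 and 28.4 TPM in the MPN mice. The highest AML mouse lay below the lowest MPN mouse, and the averages were 15.6 ± 2.88 TPM in AML and 27.0 ± 1.27 TPM in MPN mice (log2 fold change -0.77 ± 0.16, limma adjusted p = 0.0113). A fall at least as large was seen in 9.85% of all tested genes. It was called in 15 of 16 alternatives and had an adjusted p of 0.0523 with the term for sex, although the log2 fold change there was -0.91.

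None of the other 7 enzymes between squalene and cholesterol passed in limma, also at an unadjusted p under 0.05, and all 7 had overlapping groups. Sqle, the squalene epoxidase, had 21.1 to 30.0 TPM in AML and 26.3 to 30.7 TPM in MPN mice (log2 fold change -0.24). Lss, the lanosterol synthase, had 10.2 to 12.8 TPM in AML and 9.24 to 14.2 TPM in MPN mice. The reductase Tm7sf2 had 4.56 to 6.84 TPM in AML and 5.07 to 7.58 TPM in MPN mice, and the demethylating dehydrogenase Nsdhl had 16.9 to 21.9 TPM in AML and 19.2 to 25.4 TPM in MPN mice. Their log2 fold changes were both -0.22. Of the Tm7sf2 windows, 17.4% also occur in Vps51, so part of the Tm7sf2 level is uncertain. The sterol isomerase Ebp had 33.75 to 46.4 TPM in AML and 41.7 to 44.15 TPM in MPN mice (log2 fold change -0.12). Values above 0 belonged to Hsd17b7, the keto-reductase of the same complex as Nsdhl, at 4.16 to 6.08 TPM in AML and 3.50 to 4.41 TPM in MPN mice (log2 fold change 0.29), and to Dhcr7, which makes cholesterol from 7-dehydrocholesterol, at 18.0 to 24.5 TPM in AML and 16.9 to 19.1 TPM in MPN mice (log2 fold change 0.22).

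The cholesterol enzymes did not follow the mouse order of the fatty acid genes within the AML group. AML replicate 2 had the highest AML value for 12 of the 16 enzymes, and AML replicate 3 the lowest for 10. In the MPN group, replicate 1 was highest for 11 of the 16 and replicate 3 lowest for 9. Their summed level was 384, 481 and 386 TPM in AML replicates 1 to 3, against 498, 491 and 466 TPM in MPN replicates 1 to 3. The sums overlapped through AML replicate 2.

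**Figure D3:**
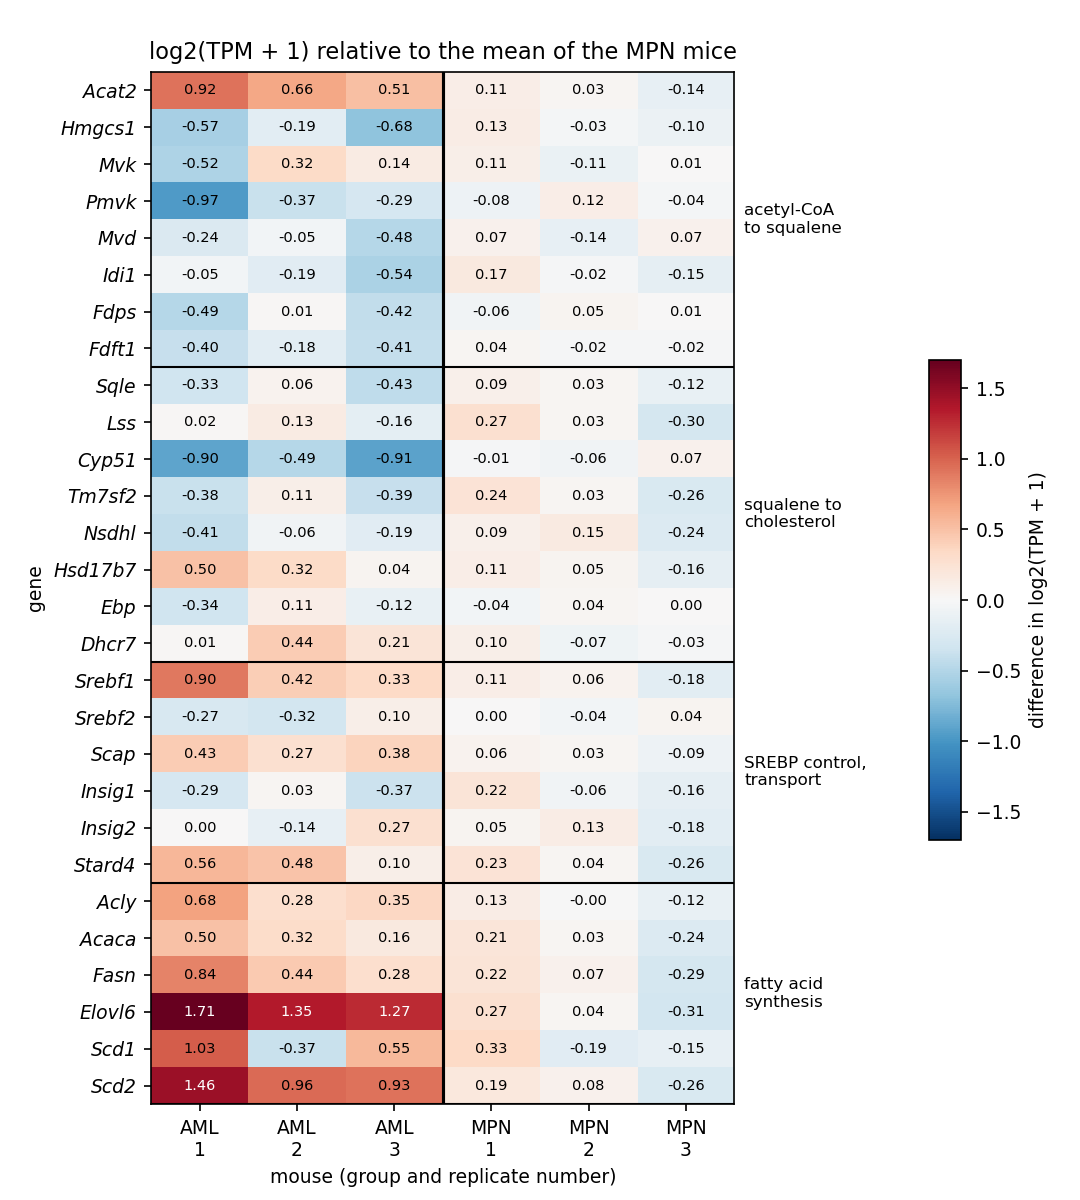
Difference of each mouse (columns) from the mean of the MPN mice in log2(TPM + 1), for the 28 genes (rows, grouped by role), with red above and blue below that mean and the value printed in each cell. Elovl6 reaches 1.71, 1.35 and 1.27 in AML replicates 1 to 3, and Cyp51 -0.90, -0.49 and -0.91; the blue of the cholesterol enzymes is fainter in AML replicate 2 than in AML replicates 1 and 3.

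Of the 6 control and transport genes 1 rose, 0 fell and the other 5 missed the threshold, while 20.1% of all tested genes were higher and 10% lower. The median log2 fold change of the 6 was 0.20, against 0.13 over all tested genes. Scap (chr9:110333288-110384950, plus strand), the sterol sensor that escorts the SREBPs, had 67.7, 60.6 and 65.55 TPM in the AML mice, against 52.1, 50.9 and 47.0 TPM in the MPN mice. The groups did not overlap, and the log2 fold change was 0.36 ± 0.11 (limma adjusted p = 0.0391). A rise as large was seen in 30.0% of all tested genes, and the adjusted p was 0.0568 to 0.118 with any 1 mouse left out. The overlapping 5830462I19Rik covers 13.2% of the Scap exonic bases on the other strand.

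Srebf1 (chr11:60199089-60222581, minus strand) had 71.1, 50.6 and 47.6 TPM in the AML mice and 40.7, 39.4 and 33.1 TPM in the MPN mice. Every AML mouse lay above every MPN mouse, and the log2 fold change of 0.55 ± 0.18 lay just outside the threshold (limma adjusted p = 0.0509), while in the RPKM table it was 0.53 and passed (limma adjusted p = 0.0448). Without AML replicate 3 it also passed (0.0374), and the other 5 libraries left out in turn gave 0.0733 to 0.144. Srebf2 overlapped between groups, with 126, 122 and 163 TPM in the AML mice and 152, 148 and 157 TPM in the MPN mice (log2 fold change -0.16, limma adjusted p = 0.367). The SREBP gene levels are those of transcripts, and cleavage of the proteins was not measured.

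Insig1, an SREBP target that retains SCAP, had 22.8, 28.8 and 21.5 TPM in the AML mice and 32.9, 27.0 and 25.15 TPM in the MPN mice (log2 fold change -0.21, limma adjusted p = 0.360). Insig2, its partner, had 14.6 to 19.75 TPM in AML and 14.2 to 17.8 TPM in MPN mice (log2 fold change 0.04). Stard4, a cytosolic sterol carrier, had 22.3 to 31.1 TPM in AML and 17.1 to 24.45 TPM in MPN mice (log2 fold change 0.38 ± 0.19, limma adjusted p = 0.156). All 3 overlapped between groups.

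Ratios taken within a mouse do not depend on the scaling of its library, and they are given as descriptions without a test, since the genes had been seen. Srebf1 over Srebf2 was 0.564, 0.414 and 0.293 in the AML mice, against 0.268, 0.266 and 0.211 in the MPN mice. The groups did not overlap, but AML replicate 3, the male AML mouse, was close to the MPN mice. Elovl6 over Fasn was 0.359, 0.365 and 0.385 in the AML mice, against 0.192, 0.179 and 0.177 in the MPN mice, so the elongase was higher relative to the synthase in every AML mouse, with little spread in either group. Acat2 over Hmgcs1, neighbours in the pathway, was 1.25, 0.793 and 1.01 in the AML mice, against 0.426, 0.451 and 0.417 in the MPN mice. This ratio is as uncertain as the level of Acat2, which shares sequence with Acat3. The summed fatty acid genes over the summed cholesterol enzymes came to 1.41, 0.834 and 1.03 in the AML mice, against 0.610, 0.560 and 0.499 in the MPN mice. Without Scd2 and Acly, the most abundant fatty acid genes, it was 0.402, 0.243 and 0.282 in the AML mice, against 0.190, 0.168 and 0.141 in the MPN mice, again without overlap. Scd2 over Scd1 and Insig1 over Insig2 overlapped.

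**Figure D4:**
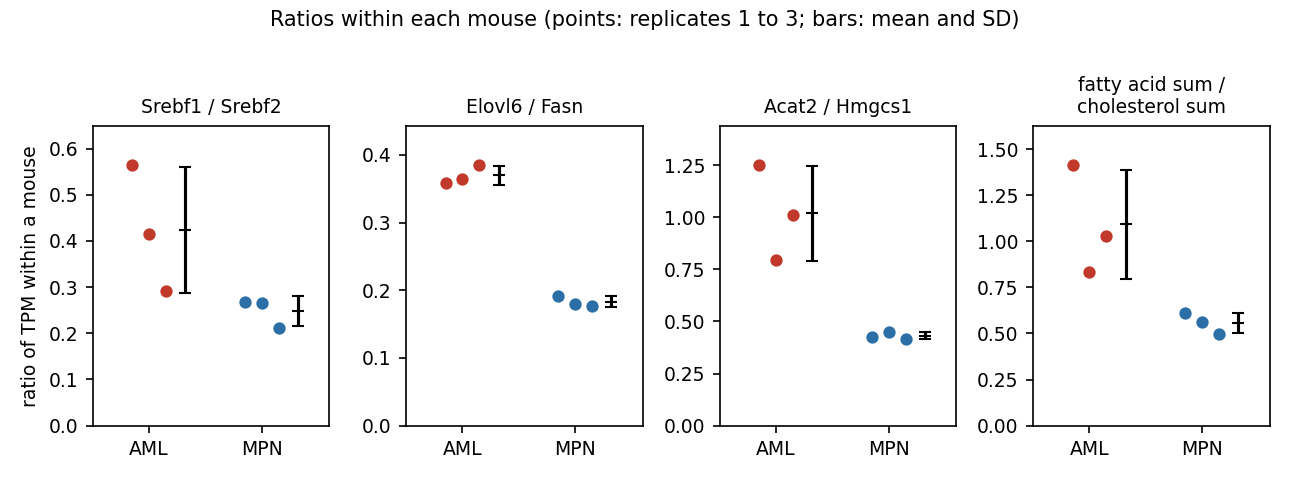
Ratio of TPM values within each mouse (vertical axes, each from 0) for 3 pairs of genes and for the summed fatty acid genes over the summed cholesterol enzymes, AML in red left of MPN in blue, with points for replicates 1 to 3 and bars for the mean and SD of 3 mice. In the 4 panels each AML mouse lies above each MPN mouse, while Scd2 over Scd1 and Insig1 over Insig2, which overlapped, are not shown. The level of Acat2 is uncertain. Elovl6 over Fasn averages 0.370 in AML and 0.183 in MPN mice.

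The RPKM table, a separate quantification of the same libraries per Ensembl gene, gave the same direction for 27 of the 28 genes, Lss being the exception. It called 6 of the genes higher (20.5% of its 12811 tested genes were) and 1 lower (10.8%), 7 in all (31.3%), and these were the 6 called in TPM and Srebf1. Elovl6 had 9.14, 7.25 and 6.57 RPKM in the AML mice and 3.08, 2.59 and 2.12 RPKM in the MPN mice (log2 fold change 1.26, limma adjusted p = 0.00197). Cyp51 had 5.09, 6.92 and 4.84 RPKM in the AML mice and 9.25, 9.08 and 10.8 RPKM in the MPN mice (log2 fold change -0.71, limma adjusted p = 0.0135).

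Other genes of these routes, taken from lists and not from the 28, numbered 71 among the tested genes, of which 16 were higher (22.5%) and 6 lower (8.45%) in AML mice, against 20.1% and 10% of all tested genes. These shares are near those of all tested genes, and the lists are given as a description. With the term for sex, 3 were higher and 2 lower, and with any 1 mouse left out 7 to 14 were higher and 4 to 6 lower. Of 17 other fatty acid synthesis genes 6 rose and 0 fell, with a median log2 fold change of 0.28. Elovl7, an elongase of longer chains, averaged 5.33 ± 1.59 TPM in AML and 1.01 ± 0.544 TPM in MPN mice (log2 fold change 1.66, limma adjusted p = 0.00530). Acsl3, which activates fatty acids on lipid droplets, averaged 13.5 ± 2.61 TPM in AML and 5.65 ± 1.06 TPM in MPN mice (1.12, adjusted p = 0.00674 in limma). The elongase Elovl5, with 151 ± 6.75 TPM in AML and 108 ± 11.0 TPM in MPN mice, and the mitochondrial citrate carrier Slc25a1, with 78.7 ± 8.47 TPM in AML and 55.8 ± 2.75 TPM in MPN mice, rose by 0.48 on the log2 scale each.

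Of 6 other cholesterol synthesis genes 2 rose and 0 fell. Aacs, which activates acetoacetate, averaged 30.0 ± 0.758 TPM in AML and 22.6 ± 0.686 TPM in MPN mice (log2 fold change 0.39, limma adjusted p = 0.0367). Msmo1, a methyl oxidase of the route, had 19.4 to 30.0 TPM in AML and 29.5 to 35.0 TPM in MPN mice (-0.48, adjusted p = 0.0957 in limma), and the desaturase Sc5d did not pass either (-0.26). Of 11 genes of the isoprenoid branches 1 rose, Pdss1, which makes the side chain of coenzyme Q, with 19.4 ± 2.94 TPM in AML and 9.37 ± 1.92 TPM in MPN mice (log2 fold change 0.98, limma adjusted p = 0.00978). Fntb, a farnesyltransferase subunit, had 12.6 to 19.6 TPM in AML and 7.66 to 11.6 TPM in MPN mice (0.66, adjusted p = 0.0560 in limma).

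Of 13 genes of SREBP processing and sterol feedback 3 rose and 2 fell. Npc2, which hands cholesterol on in lysosomes, averaged 118 ± 15.1 TPM in AML and 238 ± 14.6 TPM in MPN mice (log2 fold change -1.01, limma adjusted p = 0.00159), and Lpin1, a phosphatidate phosphatase and SREBP modulator, 9.13 ± 0.279 TPM in AML and 13.7 ± 1.49 TPM in MPN mice (-0.53, adjusted p = 0.0322 in limma). Tmem97, a sterol-responsive membrane protein that binds NPC1, averaged 68.9 ± 9.66 TPM in AML and 37.5 ± 5.87 TPM in MPN mice (0.86, adjusted p = 0.00793 in limma). Ubxn8, a tether of the p97 ATPase at the endoplasmic reticulum, rose by 0.51 on the log2 scale (limma adjusted p = 0.0282).

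Of 13 genes of sterol esters, liver X receptor and efflux 1 rose and 4 fell, with a median log2 fold change of -0.28. Osbpl1a, an oxysterol-binding protein, averaged 33.1 ± 13.4 TPM in AML and 7.96 ± 1.501 TPM in MPN mice (log2 fold change 1.87, limma adjusted p = 0.00328). Apoe, the apolipoprotein E gene, averaged 25.6 ± 6.14 TPM in AML and 77.8 ± 20.8 TPM in MPN mice (-1.56, adjusted p = 0.00427 in limma). Nr1h3, the liver X receptor alpha gene of macrophages, averaged 0.377 ± 0.165 TPM in AML and 2.21 ± 0.690 TPM in MPN mice (-1.21, adjusted p = 0.00601 in limma), and Cyp7b1, an oxysterol hydroxylase, 0.330 ± 0.200 TPM in AML and 4.03 ± 3.94 TPM in MPN mice (-1.66, adjusted p = 0.0363 in limma). Cyp27a1, the mitochondrial sterol hydroxylase and the other gene that fell, was named after its values were seen, and it had 27.6, 74.2 and 127 TPM in the AML mice, against 219, 225 and 160 TPM in the MPN mice (-1.62, adjusted p = 0.0423 in limma), and AML replicate 1 was lowest. Macrophage markers fell alongside (104 to 215 TPM summed in AML and 483 to 652 TPM in MPN mice), and their part in these falls was not tested.

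Of 11 fatty acid oxidation genes 3 rose and 0 fell, with a median log2 fold change of 0.28. Pparg, a lipid-sensing nuclear receptor listed with them, averaged 6.75 ± 1.48 TPM in AML and 2.13 ± 0.0889 TPM in MPN mice (log2 fold change 1.29, limma adjusted p = 0.00345). Cpt1a, which commits fatty acids to the mitochondria, averaged 108 ± 10.3 TPM in AML and 76.1 ± 0.121 TPM in MPN mice (0.50, adjusted p = 0.0137 in limma), and Hadhb, a subunit of the trifunctional protein of beta-oxidation, 145 ± 25.6 TPM in AML and 90.8 ± 9.81 TPM in MPN mice (0.66, adjusted p = 0.0174 in limma). Acadm, the medium-chain dehydrogenase, did not pass (0.34, adjusted p = 0.0603 in limma).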

How the data were processed

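Gene expression was measured by stranded, poly-A selected, paired-end RNA-seq in 6 libraries, 1 per mouse, per the labels' protocols. The authors deposited TPM values by gene symbol, gene-level output of RSEM per the file headers, and RPKM values by Ensembl gene, both with 1 column per mouse. Per the submitters' processing notes, the tools were TopHat2, RSEM and Bowtie2 and the builds mm9 and mm10. The build and counting strand of each table are not given in the sources used here. Relative depth, which TPM does not keep, was read from the steps of low RPKM values.

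Values were used as log2(TPM + 1), which understates the fold change of genes with low values. Of 24054 genes, 12223 reached 1 TPM in 3 or more of 6 libraries and entered limma 3.58.1 (R 4.3.3), fitted without covariates and with the trend of variance on the mean. Tests were two-sided, adjusted by Benjamini-Hochberg over all tested genes, with a threshold of 0.05. The fit was also run on simulated normal values drawn with the variances it had estimated. These values held no sex, run or cell type differences, so they do not test the calls. Errors are SD over 3 mice or the SE of limma. Nothing says that the mice were littermates, and replicate numbers, given in accession order, pair none.

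The 28 genes, the other lists and the alternatives were chosen with earlier results of these data known. All 28 are named, and of each other list up to 4 tested genes with the smallest p. Not all of these are reported here. Shares of transcript windows and exonic overlaps were computed from GENCODE M21 on GRCm38, and promoters are RefSeq's on GRCm38.p6. Alternatives were other pseudocounts, filters and scalings, RPKM, no trend, array weights, a term for sex and leaving out each mouse.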

Additional observations from a re-analysis of the deposited data

How the results depend on the processing

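Of the called genes, Elovl6 passed in all 16 alternatives, Scd2 and Cyp51 in 15, Acat2 in 14, Scap in 7 and Acly in 4. The count of higher genes was 5, and it was 3 with median scaling, 3 without the trend, 1 with a term for sex and 2 to 4 with 1 mouse left out. The count of lower genes was 1, and it was 3 with median scaling, quantile normalization or array weights, 0 with a term for sex and 1 to 3 with 1 mouse left out. Array weights and RPKM added Srebf1 to the higher genes. Among the other genes of these routes 16 were higher and 6 lower, against 3 and 2 with a term for sex, and 7 to 14 and 4 to 6 with 1 mouse left out. The median over the 28 genes was -0.01, and -0.09 to 0.05 with 1 mouse left out. Genes near 0 changed sign. Mvk, at -0.02, was 0.19 with array weights, 0.14 with a term for sex and -0.19 to 0.23 with 1 mouse left out. Lss, at 0.00, was 0.063 in RPKM, and -0.15 to 0.13 with 1 mouse left out. Srebf2 was 0.10 with a term for sex. Insig2, at 0.04, was -0.040 with median scaling, -0.046 with quantile normalization, -0.046 with array weights and -0.070 to 0.14 with 1 mouse left out. The cause of these changes was not tested. No paired analysis was possible because the labels give no replicate numbers. The 3 mice per group and the unknown read counts limit the precision, most for Scd1, whose log2 fold change had an SE of 0.36, and whether the mice come from separate litters is not given, so p-values measure the spread between these mice only.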
